A study of Homo sapiens with 9 samples.

Results

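The replication-dependent histone genes were taken as every gene symbol beginning with HIST1H, HIST2H, HIST3H or HIST4H in the deposited identifier table, where each assembled isoform carries the symbol of its reference gene. There were 89 such symbols among 50432 in all, with 137 isoforms, of which 120 had values. A total of 88 symbols could be measured and 41 of them passed a mean summed signal of 100 over the 4 libraries, among 15095 genes that did. The remaining symbol, HIST1H3H, had no isoform of its own with a value, and its locus was counted under HIST1H2AI. The symbols cover the linker histone H1 (8 genes), the nucleosome core histones H2A (22), H2B (26), H3 (17) and H4 (16), and 14 of them are pseudogenes by name.

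The cells were HEK293 Flp-In T-Rex, an established line from human embryonic kidney, in a version labelled b-39 that expresses a b-globin PTC39 reporter, a globin gene with a premature stop codon, from its Flp-In locus. The 4 conditions were sequenced as cytoplasmic poly(A)+ RNA, with 1 library each: SMG6/XRN1 depletion, UPF1/XRN1 depletion, XRN1 depletion, and a control treated with siRNA against EGFP. XRN1 is the main cytoplasmic 5'-to-3' exonuclease, UPF1 is the RNA helicase on which nonsense-mediated decay (NMD) depends, and SMG6 cuts the mRNAs that NMD selects. The study asked how the decay of NMD targets starts. With 1 library per group nothing could be tested between groups, every value below describes those libraries, and intervals cover counting error only.

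Histone genes of this family are transcribed in S phase to package newly made DNA. Their mRNAs are, as a class, the ones that end in a conserved stem-loop in place of a poly(A) tail: the loop is bound by SLBP, and the U7 snRNP directs the cut just after it. At the end of S phase they are degraded rapidly, and SLBP, UPF1, the LSM1-7 ring, the exonuclease ERI1 and XRN1 are known to take part. Some of these genes also give polyadenylated transcripts that run past the stem-loop or are spliced. Poly(A)+ selection keeps tailed RNA, while the tails themselves were not measured here and how much untailed histone mRNA came through was not tested. A change in tailing and a change in amount cannot be told apart. Nor can fewer cells in S phase and less RNA per cell.

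The stem-loops are shown because they mark the place at which a replication-dependent transcript ordinarily ends, while the libraries here were selected for RNA with a tail. All 89 symbols had a transcript in GENCODE v29 (GRCh38). These transcripts were searched on the RNA strand for GGNNNNTTNNNNNNCC, where N is any base and the last 6 bases pair with the first 6. Such a run was found in transcripts of 31 members, and 35.8% of the 123 member transcripts held it, against 0.149% of 206571 other transcripts. It took 4 forms, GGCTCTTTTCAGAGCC in 18 members, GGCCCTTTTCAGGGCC in 5, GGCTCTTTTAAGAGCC in 5 and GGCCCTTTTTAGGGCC in 3.  The following windows give the stem-loop in capitals with 5 bases on either side, 5' to 3', from transcripts of members that the results turn on.
HIST2H4A: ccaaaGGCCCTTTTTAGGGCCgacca
HIST2H4B: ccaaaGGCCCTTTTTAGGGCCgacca
HIST1H2BN: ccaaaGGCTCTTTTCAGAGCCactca
HIST1H2AE: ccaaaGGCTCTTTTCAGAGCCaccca
HIST1H2BD: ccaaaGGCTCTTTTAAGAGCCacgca
HIST1H4H: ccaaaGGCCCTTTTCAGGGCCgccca
HIST1H2AC: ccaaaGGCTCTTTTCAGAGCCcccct
The 16 bases lie, in GRCh38, at chr1:149833032-149833047 on the plus strand for HIST2H4A and at chr1:149860769-149860784 on the minus strand for HIST2H4B. Those of HIST1H2BN are at chr6:27839090-27839105 on the plus strand, those of HIST1H2AE at chr6:26217417-26217432 on the plus strand and those of HIST1H2BD at chr6:26158587-26158602 on the plus strand. HIST1H4H has its run at chr6:26285131-26285146 on the minus strand and HIST1H2AC at chr6:26124669-26124684 on the plus strand. HIST2H4A and HIST2H4B are identical over all 26 bases.

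Annotated transcripts went well past the stem-loop in many members, while others may stop too early to show it. The run starts at base 337 of the HIST1H4B transcript, for example, while the transcript of HIST1H4D has 312 bases. A member without the run here may therefore still have the stem-loop. HIST1H2AG had no such run either, in a transcript of 2250 bases, and the search kept only runs whose stem bases all pair. For 21 of the 31 members some GENCODE v29 transcript had over 100 further bases, and 15 of those 21 passed the filter on signal. The stem-loop of HIST1H2BN was followed by 377 bases in ENST00000612898. HIST2H4A transcripts ran on for 194 to 1167 bases and HIST2H4B transcripts for 240 to 1314. The stem-loop of HIST1H2AE was followed by 51 bases and that of the HIST1H2BD transcript ENST00000377777 by 39. GENCODE gave 16 members a spliced transcript, and 6 of them (HIST1H2AC, HIST1H2BN, HIST1H4H, HIST2H4A, HIST2H4B and HIST4H4) had one classed as a substrate of nonsense-mediated decay.

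Depth was 34649697 estimated reads in the library labelled SMG6/XRN1, 35983050 in UPF1/XRN1, 32970733 in XRN1 and 31476860 in the control, and 1 read was worth between 3.72 and 4.25 units of spike-in normalised signal. All 6 markers of the HEK293 line (KRT8, KRT18, VIM, NEFL, NEFM and PAX2) passed the filter, with a summed signal of 188950 to 195900. In contrast, 1 of 8 markers of other cell types (COL1A1) passed, with a sum of 357 to 432 over all 8 and INS at 0. The mRNAs of the targeted genes do not bear out each label. XRN1 had a signal of 7724, 6897 and 6135 in the SMG6/XRN1, UPF1/XRN1 and XRN1 libraries, against 6864 in the control. SMG6 had 2857 in the SMG6/XRN1 library, against 2908 in XRN1 and 2201 in the control, and UPF1 had 4650 in the UPF1/XRN1 library, against 7314 in XRN1 and 4236 in the control. The group names below are therefore those of the labels, and protein levels were not measured here.

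Histone RNA was a small part of each poly(A)+ library. The 88 measured members took 0.0451% of reads in SMG6/XRN1 (exact 95% interval 0.0444 to 0.0458), 0.0511% in UPF1/XRN1 (0.0504 to 0.0519), 0.0588% in XRN1 (0.0579 to 0.0596) and 0.0488% in the control (0.0481 to 0.0496). As summed signal that was 66382 in SMG6/XRN1, 68446 in UPF1/XRN1, 78467 in XRN1 and 59244 in the control. The XRN1 library held most by either measure, while the lowest share was in SMG6/XRN1 and the lowest signal in the control. Few genes carried the total: HIST1H2BK, HIST1H1C, HIST2H4A, HIST2H4B and HIST1H1E together made up 38.1% of it in SMG6/XRN1, 40.9% in UPF1/XRN1, 46.6% in XRN1 and 36.2% in the control. At the other end 48 symbols did not pass, 1 of them without values, 16 at 0 in every library and 31 with a mean signal of 0.266 (HIST3H2BA) to 96.9 (HIST1H4PS1).

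Levels per length came from the gene table, whose FPKM (fragments per kilobase of transcript, scaled to the size of the library) allows genes to be compared. It held 60 of the 88 loci of these genes, and 42 of the 60 had a mean of at least 1 FPKM. HIST1H4C, an H4 gene, was the most abundant on average, with 101 FPKM in SMG6/XRN1, 110 FPKM in UPF1/XRN1, 92.9 FPKM in XRN1 and 101 FPKM in control. HIST1H2BK, an H2B gene, followed with 82.9 in SMG6/XRN1, 89.3 in UPF1/XRN1, 120 in XRN1 and 84.2 FPKM in control. HIST1H1C, a linker histone gene, came next with 63.1 in SMG6/XRN1, 63.3 in UPF1/XRN1, 86.3 in XRN1 and 64.6 FPKM in control. Both HIST1H2BK and HIST1H1C were highest in the XRN1 library, and HIST1H2BK exceeded HIST1H4C there only. The next were HIST2H2AA4, which has a near-identical copy, at 41.9 to 64.8 FPKM over the 4 libraries, HIST1H2BD at 41.3 to 45.4, HIST1H1E at 35.2 to 42.6, HIST1H4E at 31.3 to 38.1 and HIST3H2A at 20.5 to 32.9. Within libraries HIST1H4C exceeded HIST1H2BK in 3 of 4, while HIST1H2BK exceeded HIST1H1C, and HIST1H1C exceeded HIST2H2AA4, in all 4. HIST2H2AA4 exceeded HIST1H2BD in 2 of 4, and each later neighbour down to HIST3H2A kept its place in 3 of 4. Below 20 FPKM on average stood HIST1H2BJ, HIST2H4A, HIST2H4B, HIST2H2AC, HIST1H3B and HIST1H2BN, with 14.8 to 19.6 on average. The first H3 gene in that order was HIST1H3B, at 18.8 in SMG6/XRN1, 19.4 in UPF1/XRN1, 17.0 in XRN1 and 15.4 FPKM in control.

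**Figure D1:**
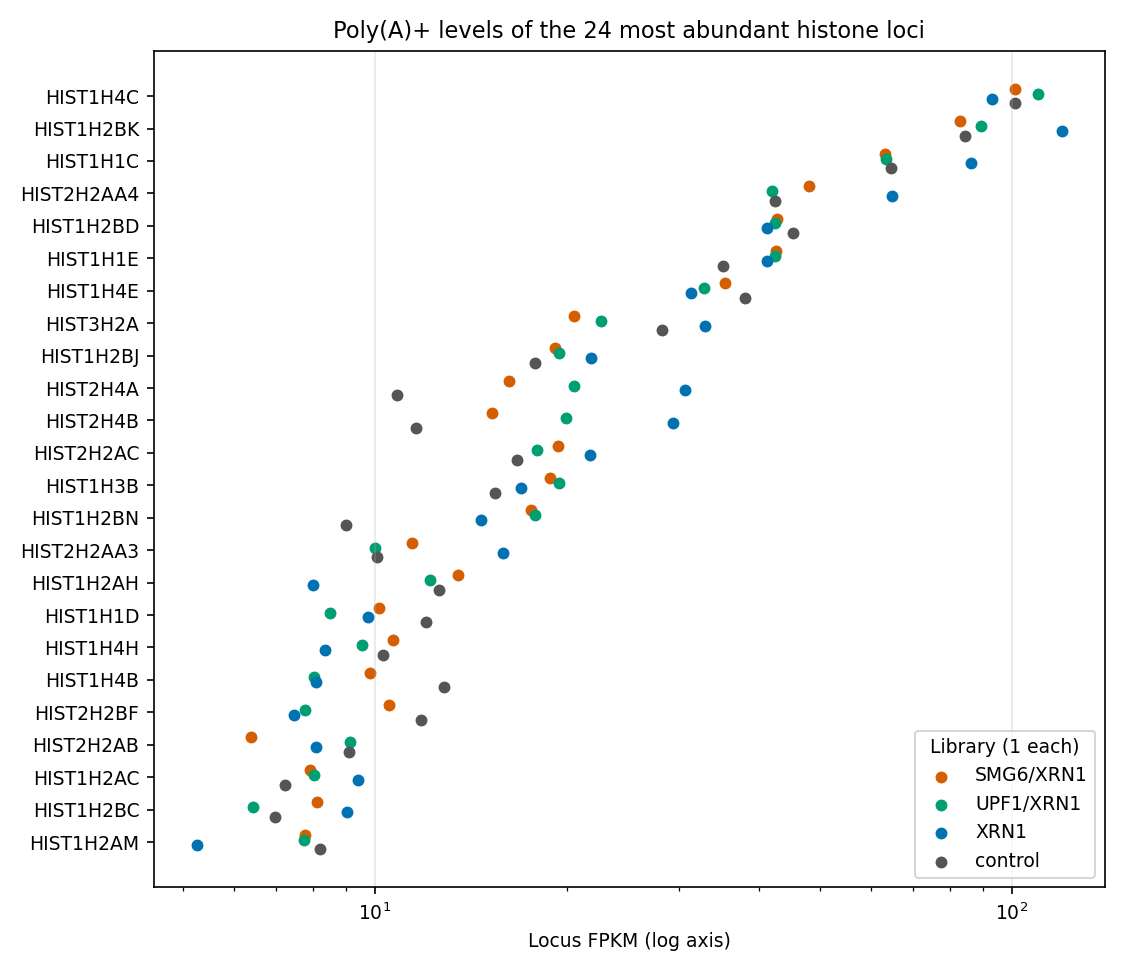
Locus FPKM (log axis) of the 24 most abundant histone loci, ordered by their mean, with 1 point per library. HIST2H4A and HIST2H4B stand out by their spread, with 30.6 and 29.4 FPKM in the XRN1 library, against 10.8 and 11.6 in the control.

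Replacement histone genes, whose mRNAs carry a tail as a rule, lay on both sides of these levels. Of 12 such genes 5 (H3F3A, H3F3B, H2AFZ, H2AFV and H2AFY) exceeded HIST1H4C by FPKM in every library and 7 were below it in every library. H3F3A, an H3.3 gene, had 959 in SMG6/XRN1, 858 in UPF1/XRN1, 1252 in XRN1 and 1288 FPKM in control. H3F3B, the other H3.3 gene, had 662 in SMG6/XRN1, 665 in UPF1/XRN1, 538 in XRN1 and 536 FPKM in control. Of the 12 replacement histone genes 11 passed the filter and none was past 2-fold in any of the 6 comparisons. The shares of all genes that were are given with each comparison below.

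Depletion of XRN1 was set against the control first. The H4 pair HIST2H4A and HIST2H4B and the H2B gene HIST1H2BN were at least 2-fold higher, which made 3 of 41 members, where 9.99% of all 15095 genes were. A single member, the H3 pseudogene HIST1H3PS1, was at least 2-fold lower, against 1.17% of all genes. The median member changed by 0.04 on the log2 scale (log2 of signal + 1), against 0.20 for all genes, and 21 of 41 members (51.2%) were above 0, against 69.5% of all genes. By locus FPKM 2 of 42 histone loci, those of HIST2H4A and HIST2H4B, were at least 2-fold higher, against 4.11% of 12164, and none was lower, against 0.37%. The sum over members was nonetheless higher by 0.41 on the log2 scale, and by 0.25 without HIST2H4A and HIST2H4B.

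Both co-depletions were then set against XRN1 alone. These comparisons share the XRN1 library with the one before, so a value that is high in it alone gives a rise there and a fall here. In SMG6/XRN1 over XRN1, 2 members were at least 2-fold higher (HIST1H2AE and HIST1H3PS1), against 4.6% of all genes, and 2 at least 2-fold lower (HIST2H4A and HIST2H4B), against 0.298%. In UPF1/XRN1 over XRN1, 2 were higher (HIST1H2AE and HIST1H3PS1 again), against 6.31%, and none lower, against 1.85%. Member medians were 0.14 and 0.05 on the log2 scale, and those of all genes 0.22 and 0.10. By locus FPKM with 1 added, no member was past 2-fold in either, where 1.36% and 2.52% of loci were higher and 0.173% and 0.534% lower. Without the added 1 the locus of HIST1H2AE was past it in both, at 4.92 and 4.77 FPKM against 2.34. Each co-depletion was also set against the control. There HIST1H2BN and HIST1H3PS1 alone were at least 2-fold higher, in both, while 19.1% of all genes were in SMG6/XRN1 and 18.1% in UPF1/XRN1. None was at least 2-fold lower, against 0.404% and 1.4% of all genes. By locus FPKM with 1 added, no histone locus with a mean of at least 1 FPKM was past 2-fold over the control. Of all such loci 9.3% were higher and 0.263% lower in SMG6/XRN1, and 10.2% higher and 0.575% lower in UPF1/XRN1. The locus of HIST1H3PS1, with a mean under 1 FPKM, was not counted. Without the added 1 it was past 2-fold in both, at 1.26 and 1.34 FPKM, against 0.487 in the control. Between UPF1/XRN1 and SMG6/XRN1 no member was past 2-fold, against 0.57% of all genes higher and 1.32% lower, and no locus by FPKM, against 0.312% either way.

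**Figure D2:**
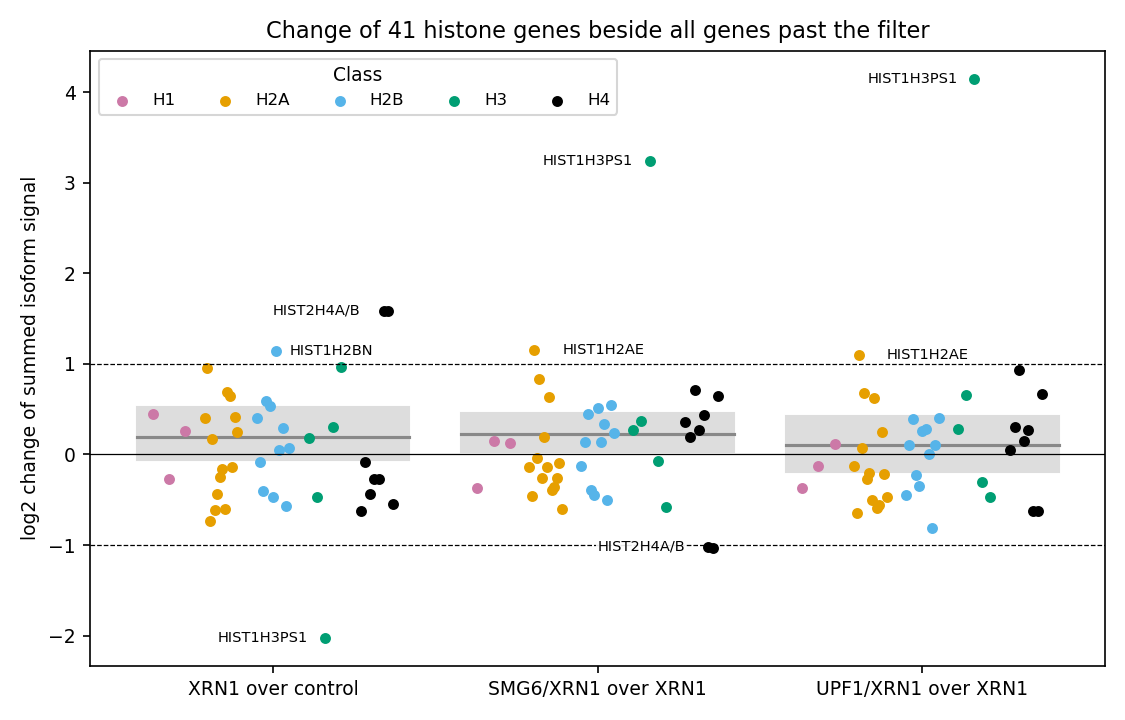
The log2 change of summed isoform signal of the 41 members past the filter in the 3 main comparisons, coloured by histone class; the line and grey band give the median and the quartiles of all 15095 genes, and dashed lines mark 2-fold. HIST2H4A and HIST2H4B lie at 1.59 and 1.58 in XRN1 over control and at -1.02 and -1.04 in SMG6/XRN1 over XRN1. Of the 41 members 36 lie within 2-fold in all 3, and the share of all genes that do is not given here.

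The linker histone genes changed little. HIST1H1C had a signal of 5781 in SMG6/XRN1, 5769 in UPF1/XRN1, 7460 in XRN1 and 5477 in the control, and was higher by 0.45 on the log2 scale in XRN1 over control, a read ratio of 1.36 (95% interval 1.27 to 1.46). HIST1H1E was at 4277 in SMG6/XRN1, 4248 in UPF1/XRN1, 3916 in XRN1 and 3276 in control, lowest in the control, and HIST1H1D at 1008 in SMG6/XRN1, 837 in UPF1/XRN1, 911 in XRN1 and 1102 in control. These were the 3 H1 genes past the filter. HIST1H1PS1, a pseudogene and the fourth by mean, did not pass.

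Among the H2A genes, which with H2B form the dimers at the faces of the nucleosome, 14 passed. HIST2H2AA4 had the highest mean, with a signal of 2914 in SMG6/XRN1, 2532 in UPF1/XRN1, 3727 in XRN1 and 2390 in the control. Its GENCODE transcript shares 97.1% of its 50-base words with HIST2H2AA3, so reads cannot be assigned to either copy. Their sum was 4426 in SMG6/XRN1, 3851 in UPF1/XRN1, 5711 in XRN1 and 3623 in control. HIST3H2A had 2257 in SMG6/XRN1, 2474 in UPF1/XRN1, 3418 in XRN1 and 2871 in control. HIST1H2AI had 2180 in SMG6/XRN1, 2159 in UPF1/XRN1, 2604 in XRN1 and 3512 in control. HIST1H2AC had 1951 in SMG6/XRN1, 1964 in UPF1/XRN1, 2150 in XRN1 and 1626 in control. The first 2 and HIST1H2AC were highest in the XRN1 library, and HIST1H2AI was highest in the control. HIST1H2AI was read from an isoform that only overlaps its reference, in a locus that also holds HIST1H3H. Of the 41 members, 6 rest on such overlapping isoforms alone, and the others are HIST3H2A, HIST1H2AK, HIST1H2AL, HIST1H3E and HIST1H4D.

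HIST1H2AE was the H2A gene that passed 2-fold. It had 298 in SMG6/XRN1 and 286 in UPF1/XRN1, against 134 in XRN1 and 224 in the control. The XRN1 library stood lowest, with 33 reads, against 58 in the control. Over XRN1 the log2 change was 1.15 in SMG6/XRN1, a read ratio of 2.23 (1.45 to 3.48), and 1.09 in UPF1/XRN1, a ratio of 2.14 (1.41 to 3.33). Relative to the median of all genes these were 0.93 and 0.99, both under 2-fold. By locus FPKM they were 0.83 and 0.79, where 1 is added to each FPKM. The FPKM alone was past 2-fold in both, at 4.92 in SMG6/XRN1 and 4.77 in UPF1/XRN1, against 2.34 in XRN1.

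Of the H2B genes 11 passed. HIST1H2BK had a signal of 8817 in SMG6/XRN1, 9448 in UPF1/XRN1, 12011 in XRN1 and 8294 in the control. Its read ratio in XRN1 over control was 1.45 (1.37 to 1.53). Its GENCODE transcript, of 381 bases, shares 74.1% of its 50-base words with other genes, so part of its reads may come from them. The measured isoform was not tied to that transcript, so the shared part of it is not known. HIST1H2BD was nearly level at 2627 in SMG6/XRN1, 2563 in UPF1/XRN1, 2389 in XRN1 and 2525 in control. Its isoform that ends shortly after the stem-loop, ENST00000377777, carried 2135 in SMG6/XRN1, 2153 in UPF1/XRN1, 1970.5 in XRN1 and 2169 in control, or 81.3% to 85.9% of the gene. The spliced one without the stem-loop, ENST00000289316, carried 493 in SMG6/XRN1, 410 in UPF1/XRN1, 419 in XRN1 and 355 in control. HIST1H2BJ had 1853 in SMG6/XRN1, 2083 in UPF1/XRN1, 2430 in XRN1 and 1611 in control, highest in the XRN1 library.

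HIST1H2BN was lowest in the control. Its signal was 4209 in SMG6/XRN1, 4661 in UPF1/XRN1 and 3823 in XRN1, against 1734 in the control. The log2 change over the control was 1.28, 1.43 and 1.14 in that order of libraries, the last a read ratio of 2.20 (1.97 to 2.47). It was carried by 3 spliced isoforms. A first with a junction that the reference lacks had 1834 in SMG6/XRN1, 1958 in UPF1/XRN1 and 1696 in XRN1, against 520 in the control. A second such isoform had 1242 in SMG6/XRN1, 1613 in UPF1/XRN1 and 1310 in XRN1, against 631 in the control. The isoform that matches ENST00000449538, which GENCODE v29 classes as a substrate of NMD and which holds no such stem-loop there, had 1133 in SMG6/XRN1, 1089 in UPF1/XRN1 and 817 in XRN1, against 584 in the control. All 3 were thus lowest in the control, and the first moved most. The call in XRN1 over control is lost by other measures, since the log2 change was 0.94 relative to the median of all genes, 0.64 by locus FPKM (17.6 in SMG6/XRN1, 17.8 in UPF1/XRN1, 14.6 in XRN1 and 9.01 in control) and 0.48 with exactly matching isoforms alone.

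The H3 genes, which with H4 form the core tetramer of the nucleosome, gave little poly(A)+ RNA under their own symbols, and 5 of 17 passed. The locus of HIST1H3H was counted under HIST1H2AI, at 2159 to 3512, and HIST1H3D shares a locus with HIST1H2AD. How much of that signal is H3 RNA was not tested. HIST1H3B had a signal of 774 in SMG6/XRN1, 781 in UPF1/XRN1, 644 in XRN1 and 567 in the control. HIST2H3C had 607 in SMG6/XRN1, 653 in UPF1/XRN1, 905 in XRN1 and 462 in control. HIST2H3A had 413 in SMG6/XRN1, 353 in UPF1/XRN1, 435 in XRN1 and 353 in control. HIST1H3E had 183 in SMG6/XRN1, 223 in UPF1/XRN1, 142 in XRN1 and 197 in control. HIST2H3C came close to 2-fold in XRN1 over control, at 0.97 on the log2 scale, while HIST2H3A was at 0.30. Their GENCODE transcripts share 100% of their 50-base words, so reads cannot be assigned to either. The sum of HIST2H3A and HIST2H3C was higher by 0.72.

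HIST1H3PS1, a pseudogene of H3, gave the widest changes on the fewest reads. It had 123 in SMG6/XRN1, 232 in UPF1/XRN1, 12.2 in XRN1 and 52.4 in the control, and the XRN1 value stands for 3 reads. The read ratio over XRN1 was 10.1 (3.15 to 52.1) in SMG6/XRN1 and 19.0 (6.20 to 94.6) in UPF1/XRN1, and that of XRN1 over control was 0.225 (0.0415 to 0.807). The signal sums 2 loci. An isoform that overlaps the reference had 123 in SMG6/XRN1, 180 in UPF1/XRN1, 0 in XRN1 and 37.0 in control. The exactly matching one, at the other locus, had 0 in SMG6/XRN1, 52.1 in UPF1/XRN1, 12.2 in XRN1 and 15.4 in control. The gene table holds the first locus only, and its FPKM, which also counts isoforms with no reference gene, was 1.26 in SMG6/XRN1, 1.34 in UPF1/XRN1, 0.670 in XRN1 and 0.487 in control, and XRN1 over control was then 0.17 on the log2 scale, the other direction.

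Among the H4 genes 8 passed. HIST2H4A had a signal of 3271 in SMG6/XRN1, 4301 in UPF1/XRN1, 6618 in XRN1 and 2203 in the control. HIST2H4B had 3178 in SMG6/XRN1, 4248 in UPF1/XRN1, 6525 in XRN1 and 2174 in control. Both were highest in the XRN1 library and lowest in the control. The genes are near-identical copies, with 94.8% to 100% of the 50-base words in their GENCODE transcripts shared with another gene, so reads cannot be assigned to either and their sum is the safer quantity. That sum was 6449, 8549 and 13143 in SMG6/XRN1, UPF1/XRN1 and XRN1, against 4377 in the control. For HIST2H4A the read ratio was 3.00 (2.73 to 3.31) in XRN1 over control, 0.495 (0.453 to 0.539) in SMG6/XRN1 over XRN1 and 0.650 (0.602 to 0.701) in UPF1/XRN1 over XRN1. The value in SMG6/XRN1 over XRN1 stands at the edge of 2-fold: by locus FPKM it was -0.88 for HIST2H4A and -0.90 for HIST2H4B on the log2 scale.

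The isoforms of this H4 pair did not move alike. The main one of HIST2H4A, matching ENST00000392939, had 2397 in SMG6/XRN1, 3377 in UPF1/XRN1 and 5879.5 in XRN1, against 1847 in the control, and so followed the gene. A second, matching ENST00000369165, had 874 in SMG6/XRN1, 924 in UPF1/XRN1 and 738 in XRN1, against 355 in the control, and was thus highest in the co-depletions. For HIST2H4B, the isoform ENST00000392932 had 2514 in SMG6/XRN1, 3482 in UPF1/XRN1, 6070 in XRN1 and 1889 in control. Its ENST00000369157 had 641 in SMG6/XRN1, 747 in UPF1/XRN1, 424 in XRN1 and 117 in control. The remaining one, ENST00000392933, went the other way, with 22.4 in SMG6/XRN1, 19.7 in UPF1/XRN1, 30.6 in XRN1 and 169 in control. These 2 minor isoforms together had 664 in SMG6/XRN1, 767 in UPF1/XRN1, 454 in XRN1 and 285 in control, so the co-depletions were 2.33 and 2.69 times the control. The authors' NMD mark was set for the second isoform of each gene and for no other isoform of the pair. Because of the shared sequence the 2 genes are not independent observations. The other 6 H4 genes past the filter were below 0 in XRN1 over control. HIST1H4C had 3885 in SMG6/XRN1, 4192 in UPF1/XRN1, 3390 in XRN1 and 3596 in control. HIST1H4E had 2636 in SMG6/XRN1, 2407 in UPF1/XRN1, 2179 in XRN1 and 2621 in control. HIST1H4H had 1518 in SMG6/XRN1, 1350 in UPF1/XRN1, 1122 in XRN1 and 1357 in control. Each of these 3 was lowest in the XRN1 library.

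**Figure D3:**
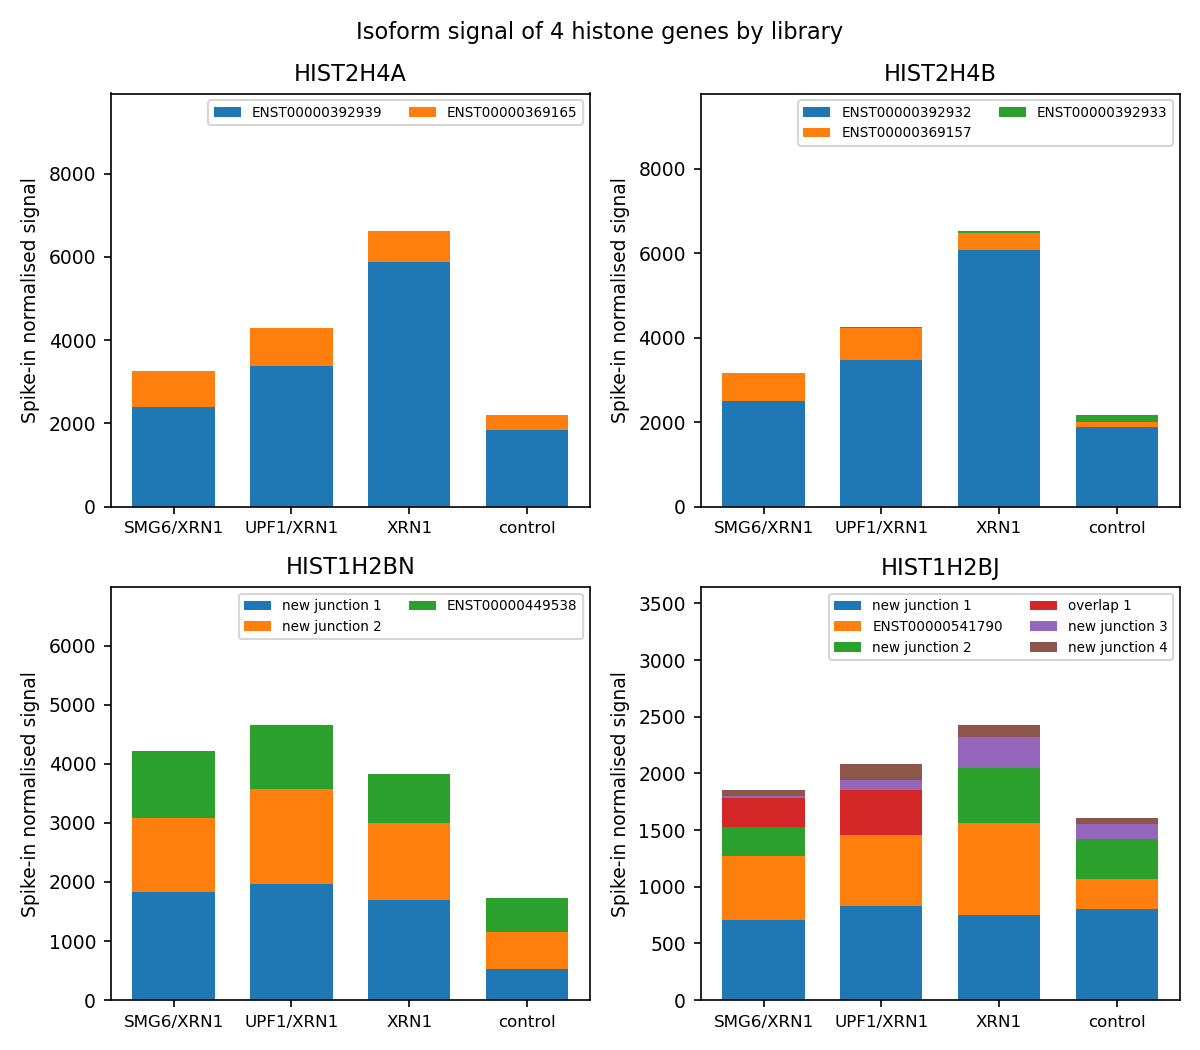
Spike-in normalised signal per isoform, stacked to the gene total, in the 4 libraries for HIST2H4A, HIST2H4B, HIST1H2BN and HIST1H2BJ; ENST names are reference transcripts matched exactly, and the others have a junction that the reference lacks or overlap it. The main isoform of each HIST2H4 gene peaks in the XRN1 library at 5879.5 and 6070, and all 3 isoforms of HIST1H2BN are lowest in the control.

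Isoforms were also compared as a group on the measure that defines the authors' NMD mark. That mark was set exactly where both co-depletions were over 2 times the control, with 0 mismatches over 199618 isoforms, so it restates these values and adds no evidence. Of 70 histone isoforms with a mean signal of at least 30, 7 (10%, exact 95% interval 4.12 to 19.5) were at least 2-fold higher in both SMG6/XRN1 and UPF1/XRN1 over control, against 27.3% of 61922 isoforms. Isoforms of 1 gene share reads, so the interval is too narrow. The 7 belonged to HIST2H4A, HIST2H4B, HIST1H2BN, HIST1H2BJ (2), HIST1H2BL and HIST1H3PS1. Only HIST1H2BN and HIST1H3PS1 were also 2-fold higher as whole genes in both. In HIST1H2BJ an overlapping isoform had 260 in SMG6/XRN1 and 400 in UPF1/XRN1, against 0.0533 in XRN1 and 0 in the control. One with a new junction had 253 in SMG6/XRN1, 0 in UPF1/XRN1, 486 in XRN1 and 353 in control, and the gene total stayed within 2-fold in the 3 main comparisons. The HIST1H2AC isoform ENST00000314088, also of the NMD class in GENCODE, was not among the 7, with 1821 in SMG6/XRN1, 1824 in UPF1/XRN1, 1820.5 in XRN1 and 1367 in control.

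Isoforms without the stem-loop, in genes that hold it elsewhere, differed among themselves. With a mean signal of at least 30 and a match in GENCODE v29 there were 4, and the comparison was chosen after their values were seen. The HIST1H2AC isoform ENST00000602637, which lacks the stem-loop, had 131 in SMG6/XRN1 and 140 in UPF1/XRN1, against 330 in XRN1 and 259 in the control. The spliced isoform of HIST1H2BC, ENST00000314332, had 72.1 and 83.9 in SMG6/XRN1 and UPF1/XRN1, against 176 in XRN1 and 130 in the control. Its partner that keeps the stem-loop, ENST00000396984, had 464 in SMG6/XRN1, 344 in UPF1/XRN1, 408 in XRN1 and 309 in control. In HIST1H2AC and HIST1H2BC the isoform without the stem-loop was thus lower in both co-depletions than in both other libraries. For HIST1H2AC the read ratios over control were 0.510 (0.322 to 0.792) in SMG6/XRN1 and 0.547 (0.358 to 0.827) in UPF1/XRN1. For HIST1H2BC, on 17.0 and 22.6 reads, they were 0.551 (0.289 to 1.01) and 0.653 (0.367 to 1.14), so both intervals include 1. The share of all isoforms with this pattern is not given here. That of HIST1H2BN, ENST00000449538, was higher in both co-depletions than in both others, and that of HIST1H2BD, ENST00000289316, did neither, by the values given above.

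The clusters of histone genes differed in XRN1 over control. Of the 10 genes past the filter in the HIST2 cluster of chromosome 1, 8 were above 0, with a median of 0.53 on the log2 scale, and 8 were highest in the XRN1 library. Of all genes 69.5% were above 0 and 15.6% highest in that library. Of the 28 in the HIST1 cluster of chromosome 6, 11 were above 0, with a median of -0.21, and 13 were lowest in the XRN1 library, where 18.5% of all genes were lowest. Summed, HIST2 genes had 15395 in SMG6/XRN1, 16451 in UPF1/XRN1, 24083 in XRN1 and 12402 in the control, and HIST1 genes 48147 in SMG6/XRN1, 48908 in UPF1/XRN1, 50552 in XRN1 and 43450 in control. In the co-depletions over XRN1, which share that library, HIST2 medians were -0.37 and -0.51 and HIST1 medians 0.19 and 0.11. The HIST2 values rest mainly on 3 pairs of near-identical copies, since XRN1 over control was 1.59 for the HIST2H4A and HIST2H4B sum, 0.66 for HIST2H2AA3 and HIST2H2AA4, 0.72 for HIST2H3A and HIST2H3C, and 0.12 for the sum of the other 4 genes. The median of those 4 was 0.079, and 2 of them were above 0. Whether read assignment to copies plays a part was not tested.

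Members were also divided by how far their annotated transcripts ran past the stem-loop. The median in XRN1 over control was 0.30 on the log2 scale for the 15 members with over 100 bases after the stem-loop. It was -0.43 for the 7 with at most 100 bases, and 0.20 for all genes. The 19 with no such run in a GENCODE v29 transcript, some of which may stop short of it, had -0.09. All 3 members at least 2-fold higher were among the 15, which are grouped by annotated and not by measured transcripts. HIST2H4A and HIST2H4B are near-identical copies. HIST1H2BN is placed there by ENST00000612898, which none of its measured isoforms matches exactly. The measured isoforms of HIST2H4A and HIST2H4B were likewise not tied to any GENCODE v29 transcript of these genes. The group of 15 holds 4 of the 6 copies named above, and without them the median of the other 11 was 0.068, below that of all genes. The median of the 7 was the value of HIST1H2AI, read from an isoform that only overlaps its reference, in a locus shared with HIST1H3H. Without the copies among the 7 the median of the other 5 was -0.474. The limit of 100 bases was chosen after the data were seen.

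Other gene lists place these values. The shares of all genes past 2-fold are those given above for each comparison. Of 24 genes of S phase 8 were above 0 in XRN1 over control, with a median of -0.20, near that of HIST1 members. None passed 2-fold in a main comparison, and POLA1, a subunit of DNA polymerase alpha, was 1.06 in UPF1/XRN1 over control, with 32627 in UPF1/XRN1 and 15679 in control. The most abundant of them, MCM4 of the replicative helicase, had a signal of 90114 in SMG6/XRN1, 75811 in UPF1/XRN1, 85898 in XRN1 and 117730 in control. MCM7 of the same helicase had 80456 in SMG6/XRN1, 78043 in UPF1/XRN1, 69039 in XRN1 and 77547 in control. The 22 genes of G2 and M phase had a median of -0.02 and none past 2-fold in any of the 6 comparisons. TOP2A, a topoisomerase, had 142300 in SMG6/XRN1, 110560 in UPF1/XRN1, 134320 in XRN1 and 155900 in control, and CCNB1, a mitotic cyclin, had 56896 in SMG6/XRN1, 54206 in UPF1/XRN1, 55015 in XRN1 and 58573 in control. What part the cell cycle has in the histone values was not tested.

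Some factors that make or degrade histone mRNA were past 2-fold. Of all genes 9.99% were at least 2-fold higher in XRN1 over control and 1.17% lower. Over control 19.1% of all genes were higher in SMG6/XRN1 and 18.1% in UPF1/XRN1, and 0.404% and 1.4% lower. No list was tested against these shares. Of 18 genes of 3' end processing ZNF473, a zinc finger protein of the U7 pathway, was the only one past 2-fold in the 3 main comparisons, with 451 in SMG6/XRN1, 458 in UPF1/XRN1 and 360 in XRN1, against 112 in the control, or 1.68 on the log2 scale in XRN1 over control. SRRT, the ARS2 protein that binds the cap-binding complex, was past 2-fold in both co-depletions over control, with 22033 in SMG6/XRN1 and 23536 in UPF1/XRN1, against 9034 in the control. SLBP, the stem-loop binding protein, had 15317 in SMG6/XRN1, 12305 in UPF1/XRN1, 15952 in XRN1 and 17352 in control. SNRPB and SNRPE, Sm proteins and the most abundant of the list by signal, stayed within 2-fold. Of 18 genes of histone mRNA decay SMG1, the kinase that phosphorylates UPF1, was higher by 1.19 on the log2 scale in XRN1 over control, with 21456 in SMG6/XRN1, 21840 in UPF1/XRN1, 18487 in XRN1 and 8081 in control. None of the others passed 2-fold in a main comparison. ZCCHC6, a terminal uridylyltransferase, was past it in both co-depletions over control, with 15096 in SMG6/XRN1 and 14583 in UPF1/XRN1, against 5914 in the control. The most abundant was LSM3 of the LSM1-7 ring, with 28282 in SMG6/XRN1, 26608 in UPF1/XRN1, 25708 in XRN1 and 30032 in control, and next came PNRC2, a decapping coactivator, with 22976 in SMG6/XRN1, 34912 in UPF1/XRN1, 26742 in XRN1 and 22605 in control. Among 16 genes of histone transcription and chaperones RBBP4, a histone chaperone, was at least 2-fold lower in XRN1 over control, at -1.01 on the log2 scale, with 23079 in SMG6/XRN1, 17837 in UPF1/XRN1, 20321 in XRN1 and 41005 in control. HINFP, a transcription factor of H4 genes, was past 2-fold in both co-depletions over control, with 2848 in SMG6/XRN1 and 3623 in UPF1/XRN1, against 1284 in the control. HIRA, a chaperone of H3.3, was past it in SMG6/XRN1 over control, with 6509 in SMG6/XRN1 and 3041 in the control. NAP1L1 and NASP, also chaperones and the most abundant in that list, stayed within 2-fold. No gene of the 6 lists passed 2-fold in either co-depletion over XRN1. Of all genes 4.6% were higher and 0.298% lower in SMG6/XRN1 over XRN1, and 6.31% higher and 1.85% lower in UPF1/XRN1 over XRN1.

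**Figure D4:**
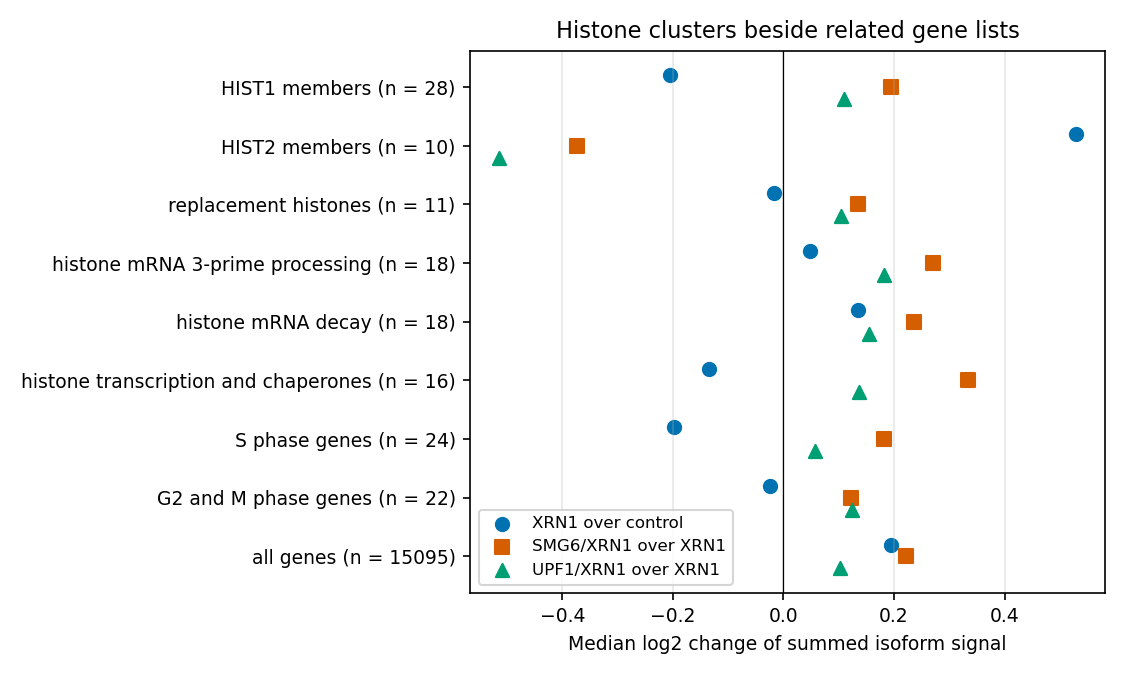
Median log2 change of summed isoform signal in the 3 main comparisons for members of the HIST1 and HIST2 clusters, for 6 related gene lists and for all genes past the filter. HIST2 members have the highest median in XRN1 over control, 0.53, and the lowest in both co-depletions over XRN1, -0.37 and -0.51, and these comparisons share the XRN1 library.

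The summed histone signal was highest in XRN1 and lowest in the control. By distance between log2 signals centred over the 4 libraries, the nearest genes were RRP9 (0.0314), GNB2L1 (0.0419), RPP21 (0.0475), SIGIRR (0.0475) and SH3D19 (0.0475). A total of 33 of 15054 genes lay within 0.1. With 4 libraries, likeness of this kind describes those libraries and no more.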

How the data were processed

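Values were taken as deposited, from 4 RNA-seq libraries of cytoplasmic poly(A)+ RNA (digitonin extract, ScriptSeq v2 per the labels), and the other 5 samples of the series were not used here. Per the submitters' processing notes the genome was hg19 and the tools, with no role named, included Cufflinks 2.0.2, TopHat2 2.0.6, Bowtie 0.12.7 and CASAVA 1.8.2. The isoform values are a signal that the authors deposited as spike-in normalised, while the spike-in itself is not described in the labels. A second table holds FPKM for assembled loci, as the authors deposited it. The other deposited columns are identifiers and TRUE or FALSE marks. Use of strand in counting is not stated, so overlapping genes and near-identical copies are uncertain.

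Isoform signal was summed per symbol, and a mean of at least 100 was required (at least 30 for isoforms and 1 for FPKM). Changes are log2((a + 1)/(b + 1)), for FPKM as for signal, which understates changes of low genes, above all at a few FPKM. The signal of 1 read was taken as the commonest low value, and 86.9% to 89.2% of loci with at most 20 reads came out whole within 0.01. Reads are estimates, so no count test was run, and ratios of reads are given with exact conditional binomial intervals at 95%. A change was called at 2-fold, in 6 comparisons, 3 of them main. The calculations were tested on simulated data. Genes were named by a rule: in each class the 4 with the highest mean, every member past 2-fold in a main comparison, the members of the gene table (here by range), the 2 most abundant of each of 6 lists with 110 entries and any past 2-fold in a main comparison, and XRN1, SMG6 and UPF1. Listed genes past 2-fold over the control alone were named after their values were seen. The members, lists and tests were chosen with earlier results of these data known. Stem-loops were read from GENCODE v29 (GRCh38), not the build of the files, which hold no coordinates. Exactly matching isoforms were tied to GENCODE where ID and symbol both agreed, 61 of 98, and 10 carry another symbol there, HIST1H2BJ's among them. Python 3.11.15, pandas 2.3.3, numpy 2.4.6, SciPy 1.17.1 and matplotlib 3.10.9 were used.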

Additional observations from a re-analysis of the deposited data

How the results depend on the processing

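No paired analysis was possible because each group has 1 library, and no replicate could be left out. Counts of members past 2-fold are small and moved with most settings. The counts below are higher and lower in XRN1 over control, SMG6/XRN1 over XRN1, UPF1/XRN1 over XRN1, SMG6/XRN1 over control, UPF1/XRN1 over control and UPF1/XRN1 over SMG6/XRN1. Shares of all genes past 2-fold under these other settings are not given here, so the counts show only how the calls of members moved. Without a filter, over 88 members, they were 9 and 7, 7 and 7, 9 and 5, 8 and 5, 6 and 4, and 5 and 6. Of those members 31 to 34 had at most 3 reads in a library. With a mean of at least 400, 0 were lower in the first, 0 were higher in either co-depletion over XRN1, and 1 was higher in either over control. By locus FPKM with 1 added, 0 were lower in the first, 0 were past 2-fold in the next 2 either way, and 0 were higher in either over control. The added 1 is what keeps HIST1H2AE under 2-fold in those next 2. HIST1H3PS1 is not counted by FPKM, since its locus has a mean under 1 FPKM. With exactly matching isoforms, without pseudogenes or without shared loci, 1 was higher in each of the 4 co-depletion comparisons that involve XRN1 or the control, and without pseudogenes or shared loci 0 were lower in the first. Relative to the median of all genes 1 was higher in either co-depletion over XRN1, 0 were higher and 1 lower in SMG6/XRN1 over control, and 1 was higher in UPF1/XRN1 over SMG6/XRN1. Scaled to equal totals 0 were higher in SMG6/XRN1 over control and 1 in UPF1/XRN1 over SMG6/XRN1. A pseudocount of 20 left 1 higher in UPF1/XRN1 over XRN1 and 1 in SMG6/XRN1 over control. Without HIST2H4A and HIST2H4B, an alternative chosen after seeing the data, 1 was higher in XRN1 over control and 0 lower in SMG6/XRN1 over XRN1. Without the 3 pairs of near-identical copies, also chosen after seeing the data, the median in XRN1 over control was 0.0793 for the HIST2 cluster and 0.0678 for members with over 100 bases after the stem-loop. Member medians moved on rescaling: relative to all genes to -0.25, -0.19 and 0.11 in SMG6/XRN1 over control, UPF1/XRN1 over control and UPF1/XRN1 over SMG6/XRN1, at equal totals to -0.12, -0.045 and 0.12 in the same, and by FPKM to -0.013 in UPF1/XRN1 over control. HIST1H3PS1 changed direction in XRN1 over control by FPKM, to 0.17. The cause was not tested. The other 145 values for the members as a group and 41 for single genes stayed within their interval or within 1.5 times, and 15 for single genes moved without changing direction. Depth limits the low genes: HIST1H3PS1 rests on 3 reads in the XRN1 library.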
